A study of Mus musculus with 2 samples.

Results

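Adrenal sinusoidal endothelial cells were taken from single-cell RNA sequencing of the adrenal glands of female C57BL/6J mice of genotype SF1-Cre+;Znrf3Fx/Fx. There was 1 library at 9 weeks of age, from 3 adrenals, and 1 library at 6 weeks, from 2 adrenals. The series' design text calls 9 weeks the age of regression and 6 weeks that of hyperplasia, and sets out to profile immune cells once senescence has begun. Both groups carry the same alleles. SF1-Cre acts in steroid-producing cells, and Znrf3, which it deletes there, encodes a ubiquitin ligase that holds back Wnt signals. The Cre is therefore not directed at the endothelial cells described here, no library of mice without the deletion was analysed, and how many mice gave the adrenals is not stated. Each value below is a level in 1 library, so its interval covers counting error only, no p-value was computed, and age cannot be told apart from library.

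Members were chosen by measured UMIs (unique molecular identifiers, each standing for a captured transcript). A barcode was a member when it had at least 500 genes, at most 25% mitochondrial UMIs, at least 4 UMIs from at least 2 of the 6 gate genes Cdh5, Kdr, Plvap, Emcn, Egfl7 and Pecam1, no UMI of the leukocyte gene Ptprc, and less than 0.5% of its UMIs from the steroid genes Hsd3b1, Cyp21a1, Star and Cyp11a1. This gave 3071 members of 19135 barcodes kept. At 9 weeks 1551 of 10527 barcodes were members, which is 14.7% (exact Clopper-Pearson 95% interval 14.1 to 15.4), and at 6 weeks 1520 of 8608, which is 17.7% (16.9 to 18.5). With at least 1000 genes per barcode the shares were 14.1% (13.4 to 14.8) at 9 weeks and 15.1% (14.3 to 15.9) at 6 weeks, and these intervals overlap. The share is of sorted viable cells of all types, so it also moves with the numbers of other cells.

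Most members met the gate with a wide margin. The median was 32 gate UMIs per member at 9 weeks and 25 at 6 weeks, and all 6 gate genes were found in 72.1% of members at 9 weeks and 58.2% at 6 weeks. Just inside the threshold, 1 member at 9 weeks and 7 at 6 weeks had exactly 4 gate UMIs, and just outside it 5 barcodes at 9 weeks and 3 at 6 weeks had 3. Of barcodes that met the endothelial criterion, 259 of 1883 (13.8%) at 9 weeks and 92 of 1794 (5.13%) at 6 weeks were removed for Ptprc. Steroid genes removed 73 (3.88%) at 9 weeks and 182 (10.1%) at 6 weeks. The members held 4323840 UMIs at 9 weeks and 3576489 at 6 weeks, with medians of 2622 and 2106 UMIs per cell at these ages, well under the medians of all barcodes kept (7414 at 9 weeks, 12057.5 at 6 weeks). The libraries had 29 barcode sequences in common, of which 0 belonged to members of both.

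Sinusoids are wide, thin-walled capillaries whose endothelium is pierced by fenestrae, and in the adrenal cortex they lie against the cords of steroid-producing cells and carry their hormones away. VEGF from the parenchyma, received by the receptor Kdr, is known to keep such endothelium fenestrated, and Plvap forms the diaphragms that span the fenestrae. Endothelial cells also respond strongly to interferons, which induce genes of antigen presentation and the GBP and IRG families of GTPases, proteins that attack the vacuoles of intracellular pathogens.

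The markers given for these cells were high in them. Levels are in CPM, a gene's UMIs scaled to a total of 1000000 UMIs over all members of a library. Plvap stood at 2461 CPM at 9 weeks and 2576 CPM at 6 weeks, Emcn, a sialomucin of capillary and venous endothelium, at 3674 CPM at 9 weeks and 3429 CPM at 6 weeks, and Kdr at 2167 CPM at 9 weeks and 2006 CPM at 6 weeks. Because these 3 genes are in the gate, their presence describes the choice of cells. Outside the gate, Esm1, a proteoglycan induced by VEGF, stood at 2918 CPM at 9 weeks and 2945 CPM at 6 weeks. Gpihbp1, which carries lipoprotein lipase to the capillary lumen, stood at 2238 CPM at 9 weeks and 2013 CPM at 6 weeks. Fabp4, a fatty acid carrier of capillary endothelium, was at 7733 CPM at 9 weeks and 6962 CPM at 6 weeks, and was found in 99.0% of members at 9 weeks and 97.8% at 6 weeks. In barcodes gated as cortical (the steroid genes at 0.5% of UMIs or more, no Ptprc, under 4 gate UMIs) Esm1, Gpihbp1 and Fabp4 did not exceed 6.07 CPM at either age. In barcodes gated as immune (Ptprc present, no gate UMI, steroid genes under 0.5%) they did not exceed 17.2 CPM.

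**Figure D1:**
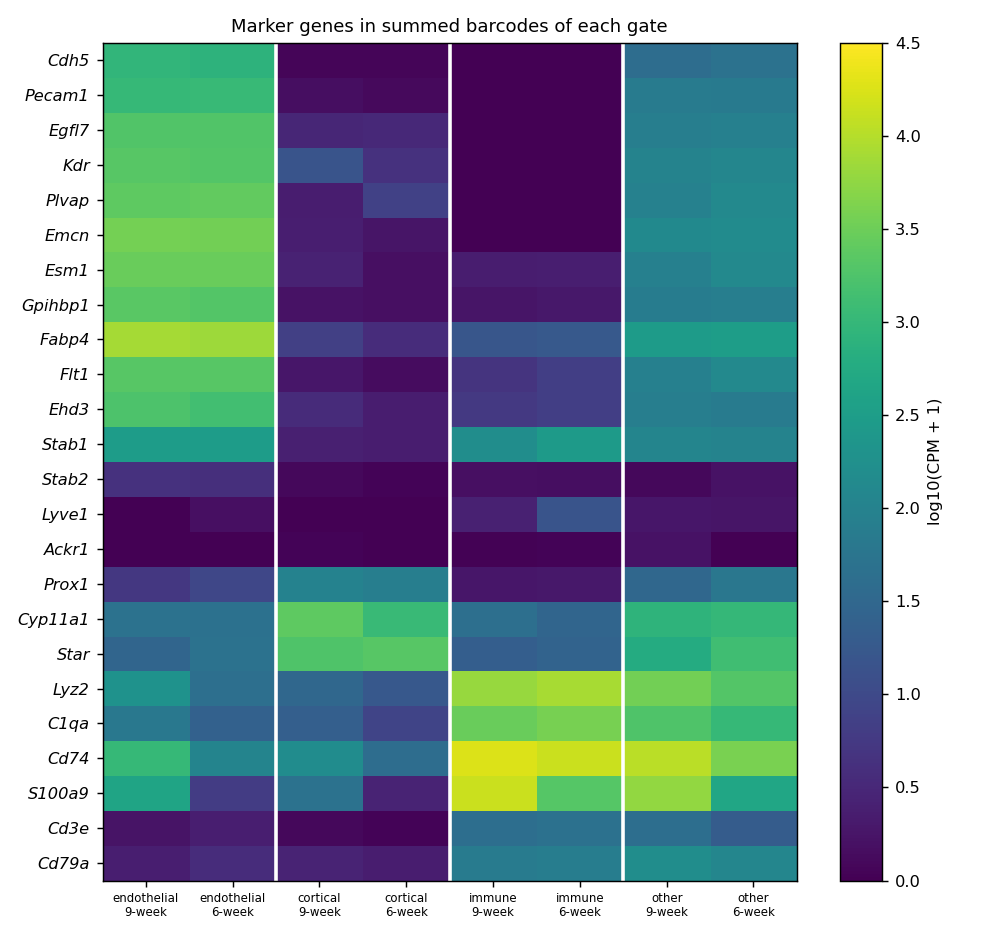
Levels of 24 marker genes, as log10(CPM + 1), in the summed barcodes of the endothelial, cortical and immune gates and of all other barcodes kept, with 9-week left of 6-week in each pair of columns. Sinusoidal genes such as Fabp4 (7733 CPM at 9 weeks and 6962 CPM at 6 weeks in endothelial cells) are bright in the endothelial columns, while Ackr1 is dark and Cd74 is brighter at 9 weeks in each gate.

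Genes of other vessels ranged widely in level. The 14 arterial genes summed to 1231 CPM at 9 weeks and 1255 CPM at 6 weeks and the 10 venous genes to 485 CPM at 9 weeks and 532 CPM at 6 weeks, while some defining markers were at or near 0. The venous sum was not particular to endothelium. It was 1132 CPM at 9 weeks and 542 CPM at 6 weeks in the cortical gate. In the immune gate it was 371 CPM at 9 weeks and 287 CPM at 6 weeks. Nr2f2, a regulator of venous identity, stood at 163 CPM at 9 weeks and 173 CPM at 6 weeks. Ackr1, the chemokine receptor of venules, and the lymphatic genes Ccl21a and Reln had 0 UMIs in the members at both ages, where 3 UMIs would stand at 0.694 CPM at 9 weeks and 0.839 CPM at 6 weeks. Vwf, typical of larger vessels, stood at 0.23 CPM at 9 weeks and 4.19 CPM at 6 weeks. The lymphatic regulator Prox1 stood at 4.39 CPM at 9 weeks and 8.11 CPM at 6 weeks, and in the cortical gate at 99.0 CPM at 9 weeks and 82.9 CPM at 6 weeks. Flt4, which lymphatic and fenestrated endothelium both express, stood at 270 CPM at 9 weeks and 292 CPM at 6 weeks.

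Some scavenger receptors known from liver sinusoids were present and others were not. Stab1 stood at 310 CPM at 9 weeks and 301 CPM at 6 weeks and Mrc1 at 173 CPM at 9 weeks and 147 CPM at 6 weeks. In contrast, Stab2 stood at 3.47 CPM at 9 weeks and 3.08 CPM at 6 weeks. Gata4, the regulator of liver sinusoidal identity, had 1 UMI at each age, and Clec4g and Cd209b had 0 at both ages.

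Genes of the vessel lists were found in similar shares of members at both ages, which counts cells with such UMIs and not cells of a subtype. With each cell thinned to 1000 UMIs, which left out 47 shallower members at 9 weeks and 58 at 6 weeks, at least 2 UMIs from 2 genes of the arterial list were held by 24.9% of members (22.8 to 27.2) at 9 weeks and 23.3% (21.2 to 25.6) at 6 weeks (without thinning 58.4% at 9 weeks and 47.9% at 6 weeks). For the tip cell list, which holds abundant genes such as Esm1 and Col4a1, the thinned share was 82.3% at 9 weeks and 78.7% at 6 weeks (96.8% at 9 weeks and 93.6% at 6 weeks without thinning). For the lymphatic list it was 0.266% at 9 weeks and 0.41% at 6 weeks (0.967% at 9 weeks and 1.38% at 6 weeks without thinning).

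Most genes differed little between the ages. Genes were tested where they reached a level of 10 CPM at either age with at least 10 UMIs in total, and a gene was called higher or lower at 9 weeks when its levels, after 5 CPM had been added to each, were 1.5-fold apart. The added 5 CPM pulls the log2 ratios of weak genes towards 0. Of 8907 genes, 117 (1.31%) were higher and 126 (1.41%) lower, and the median log2 ratio was 0.0042. In the cortical gate 7.22% of genes were higher and 3.78% lower, and in the immune gate 2.03% were higher and 2.19% lower. The genes of endothelial identity were at similar levels at both ages. Of 20 pan-endothelial genes 0 were higher and 0 lower, with a median log2 ratio of -0.016, and of 14 tested genes of the fenestrated sinusoid list also 0 were higher and 0 lower, with a median of 0.10.

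**Figure D2:**
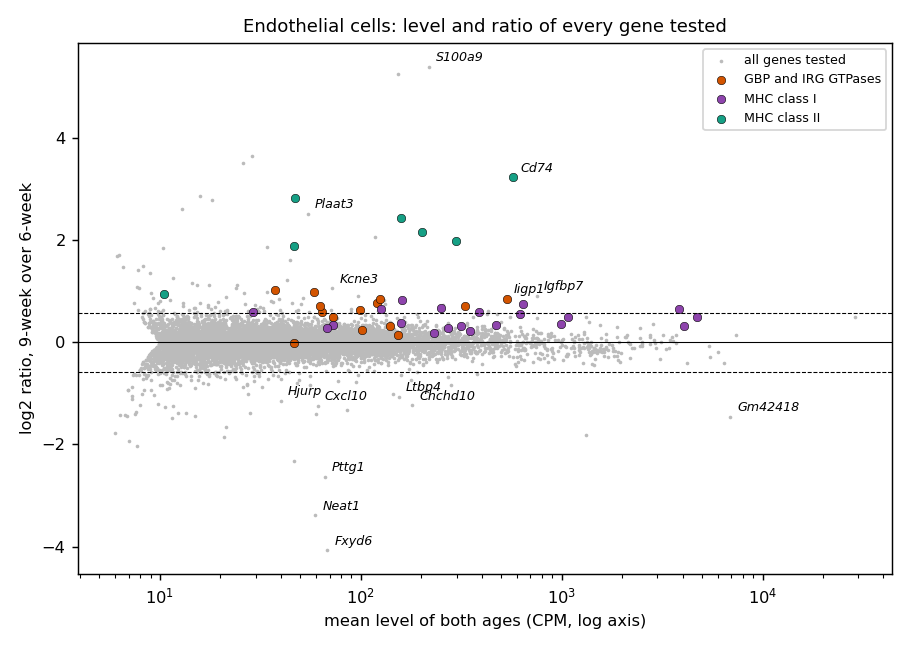
Each point is 1 of the 8907 genes tested in endothelial cells, by its mean level over both ages (CPM, log axis) and its log2 ratio of 9-week over 6-week, with dashed lines at 1.5-fold. The class II genes and 9 of 14 GBP and IRG GTPases lie above the upper line, and Fxyd6, Neat1 and Pttg1 lie lowest.

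The receptors by which endothelium reads its surroundings stood close to each other at both ages. The VEGF receptor Flt1, which acts largely as a decoy, stood at 2163 CPM at 9 weeks and 2178 CPM at 6 weeks, the co-receptor Nrp1 at 1745 CPM at 9 weeks and 1564 CPM at 6 weeks, and the angiopoietin receptor Tek at 510 CPM at 9 weeks and 571 CPM at 6 weeks. Of 11 tested genes of the VEGF and angiopoietin list 0 were higher and 0 lower. Of 11 Notch genes 0 were higher and 1 was lower, against 1.41% lower over all genes. The lower one was the glycosyltransferase Lfng (27.8 CPM at 9 weeks and 45.9 CPM at 6 weeks), while the ligand Dll4 stood at 262.5 CPM at both ages. Of 14 BMP and TGF-beta genes and of 8 Wnt genes 0 were higher and 0 lower. Id3, a target of BMP receptors, stood at 1824 CPM at 9 weeks and 2112 CPM at 6 weeks. Axin2, a direct target of beta-catenin, was too low to be tested, at 3.70 CPM at 9 weeks and 5.03 CPM at 6 weeks. Znrf3 itself had 11 UMIs (2.54 CPM) at 9 weeks and 4 UMIs (1.12 CPM) at 6 weeks.

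The clearest group that was higher at 9 weeks and also stood highest in endothelial cells was that of the GBP and IRG GTPases. Of 14 tested, of 19 listed, 9 were higher and 0 lower, against 1.31% higher over all genes, with a median log2 ratio of 0.68 (0.36 to 0.94, the medians of the genes' lower and upper bounds). All 14 stood at a higher level in the members than in the cortical, immune and other barcodes at both ages. Iigp1, which coats and breaks parasite vacuoles, stood at 690 CPM (exact Poisson 95% interval 666 to 716) at 9 weeks, against 378 CPM (358 to 399) at 6 weeks. Gbp7 stood at 413 CPM (394 to 433) at 9 weeks, against 249.97 CPM (234 to 267) at 6 weeks. Igtp stood at 162 CPM (150.3 to 175) at 9 weeks, against 88.1 CPM (78.6 to 98.4) at 6 weeks. For these 3 genes the intervals of the ages are far apart. Thinned to 1000 UMIs, Iigp1 was found in 40.1% of members at 9 weeks and 22.9% at 6 weeks, and without thinning in 59.3% at 9 weeks and 35.6% at 6 weeks. In the immune gate, at median depths of 6939 UMIs at 9 weeks and 5468 UMIs at 6 weeks, the thinned share was 7.65% at 9 weeks and 6.75% at 6 weeks, and the unthinned share 24.6% at 9 weeks and 18.4% at 6 weeks. The cortical gate had thinned shares of 3.56% at 9 weeks and 1.68% at 6 weeks. Its unthinned shares were 24.6% at 9 weeks and 9.36% at 6 weeks.

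The smaller members of the family mostly had the same direction. Gbp4 stood at 153 CPM at 9 weeks and 87.5 CPM at 6 weeks, with at most 0.784 CPM in the cortical gate. Tgtp1 had the highest ratio of the 14, at 52.0 CPM (45.5 to 59.3) at 9 weeks, against 22.9 CPM (18.2 to 28.5) at 6 weeks, a log2 ratio of 1.03. Tgtp2, a near-identical copy, stood at 79.6 CPM at 9 weeks and 37.5 CPM at 6 weeks, and reads may have been split between them. Gbp9 had a log2 ratio of 0.64, Gbp6 of 0.71 and Gbp3 of 0.60. By contrast Gbp5 was at 46.3 CPM at 9 weeks and 46.4 CPM at 6 weeks, and Gbp2 at 110.3 CPM at 9 weeks and 92.0 CPM at 6 weeks, so the ratios differed within the family. The GBP genes resemble each other, and the split of UMIs among them is uncertain. In the immune gate 1 of 14 was higher with a median of -0.025, against 2.03% of all genes there. In the cortical gate 1 of 8 was higher with a median of 0.24, against 7.22% of all genes there. That gene was Iigp1, at 55.3 CPM at 9 weeks and 24.4 CPM at 6 weeks. Its log2 ratio was 1.04 there, against 0.86 in the members.

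The GTPases of the list with a promoter window share letters in front of their start sites, which the list did not use. The stretches that hold these letters are printed for 5 genes: 4 that were higher at 9 weeks and Gbp2, which was not called. The promoter windows are from RefSeq on GRCm38.p6, and the 250 bases before each start were searched on both strands for the interferon-stimulated response element, ISRE (GAAA, any 2 bases, GAAA), and the gamma-activated site, GAS (TTC, any 3 bases, GAA). Capitals mark every match, no ISRE overlaps a GAS in these stretches, and the sequences run 5′ to 3′ on the strand of the gene.
Gbp7 (chr3:142530220-142530302, plus strand): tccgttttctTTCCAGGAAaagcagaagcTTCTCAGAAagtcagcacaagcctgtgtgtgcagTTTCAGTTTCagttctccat
Gbp3 (chr3:142559965-142560024, plus strand): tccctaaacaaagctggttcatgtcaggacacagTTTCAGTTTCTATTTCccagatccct
Igtp (chr11:58199482-58199541, plus strand): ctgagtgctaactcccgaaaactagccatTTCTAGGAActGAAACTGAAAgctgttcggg
Tgtp1 (chr11:48992304-48992363, minus strand): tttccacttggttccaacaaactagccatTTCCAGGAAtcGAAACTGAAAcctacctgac
Gbp2 (chr3:142620564-142620623, plus strand): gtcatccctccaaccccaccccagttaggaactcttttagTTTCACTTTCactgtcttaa

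In Igtp and Tgtp1 a GAS is followed after 2 bases by an ISRE. In Gbp7 2 GAS lie upstream of the ISRE, and in Gbp3 2 copies of the ISRE overlap. The ISRE begins 53 bases before the start of Gbp7, 34 before that of Igtp, 77 before that of Tgtp1 and 59 before that of Gbp2. An ISRE was found for 11 of the 11 GTPase genes whose windows were searched (91.7% of their 12 windows), against 2.98% of 32851 windows of all genes, and a GAS for 7 of 11 (58.3% of windows, against 7.02%). Since all 11 hold an ISRE, it could not be set against the ratio within the list. Of the 9 GTPases called higher 5 had a window, and Iigp1, Gbp4, Gbp6 and Gbp9 had none. Ifi47, an IRG GTPase kept in the interferon response list, was also called higher and had 0 ISRE and 0 GAS in its window. Gbp2, whose levels had a ratio of 1.20, holds one, as does Gbp7, whose ratio was 1.65. An ISRE stood in 10.2% of windows of genes called higher, 4.46% of those called lower and 2.78% of all genes tested. For genes called higher outside the GTPase, MHC and interferon response lists it was 5.06%. Of the MHC class I genes 3 of 17 held an ISRE in this window, and of the class II genes 0 of 8. A match describes letters in the window and no more.

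Genes of MHC class I, which present peptides from inside the cell, were also higher as a list. Of 20 tested, 7 were higher and 0 lower, against 1.31% higher over all genes, all 20 had a log2 ratio above 0, and the median was 0.44 (0.27 to 0.61). H2-K1, a classical heavy chain, stood at 4666 CPM (4601 to 4730) at 9 weeks, against 2978 CPM (2921 to 3035) at 6 weeks. H2-Q4 stood at 806 CPM at 9 weeks and 479 CPM at 6 weeks. Tap1, a subunit of the transporter that supplies peptides, stood at 207 CPM (193 to 220.5) at 9 weeks, against 113 CPM (102 to 125) at 6 weeks. Psmb9, of the immunoproteasome, stood at 469 CPM at 9 weeks and 308 CPM at 6 weeks, and Nlrc5, the transactivator of class I genes, at 35.8 CPM at 9 weeks and 22.1 CPM at 6 weeks. The other 2 called were H2-T22 (310 CPM at 9 weeks and 192 CPM at 6 weeks) and H2-M3 (154 CPM at 9 weeks and 96.7 CPM at 6 weeks).

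The shared light chain B2m was not called, at 4524 CPM at 9 weeks and 3629 CPM at 6 weeks, a log2 ratio of 0.32. Heavy chains such as H2-Q6 and H2-Q7 are near-identical and their values are uncertain. In the cortical gate 10 of 18 of the class I genes were higher with a median of 0.72, against 7.22% of all genes there, and in the immune gate 0 of 20 with a median of 0.18, against 2.03%. In cortical barcodes B2m stood at 888 CPM at 9 weeks and 357 CPM at 6 weeks. Class I genes were thus higher in cortical barcodes as well, whereas the GTPases there were called in 1 of 8 cases, and the difference between the gates was not tested.

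Interferon response genes other than the GBP and IRG list had smaller ratios. Of 40 tested, 3 were higher and 1 lower, against 1.31% higher and 1.41% lower over all genes, 37 had a log2 ratio above 0, and the median was 0.17. Cortical barcodes had 9 of 31 higher and 1 lower, against 7.22% higher and 3.78% lower over all genes there, with a median of 0.42. Among the higher ones, Ifi47, itself an IRG GTPase kept in this list, stood at 170 CPM at 9 weeks and 92.8 CPM at 6 weeks, and Zbp1, a sensor of nucleic acids, at 128 CPM at 9 weeks and 65.7 CPM at 6 weeks. Other interferon-induced genes were abundant at both ages. Rsad2, an antiviral enzyme, stood at 1152 CPM at 9 weeks and 1097 CPM at 6 weeks, with at most 23.4 CPM in the cortical and immune gates. Isg15, a ubiquitin-like modifier, stood at 385 CPM at 9 weeks and 343 CPM at 6 weeks, and Ifit3 at 229 CPM at 9 weeks and 202 CPM at 6 weeks. The gene called lower, Ifitm1, had 17 UMIs at 9 weeks and 56 at 6 weeks, of which 1 cell at 6 weeks held 41.

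**Figure D3:**
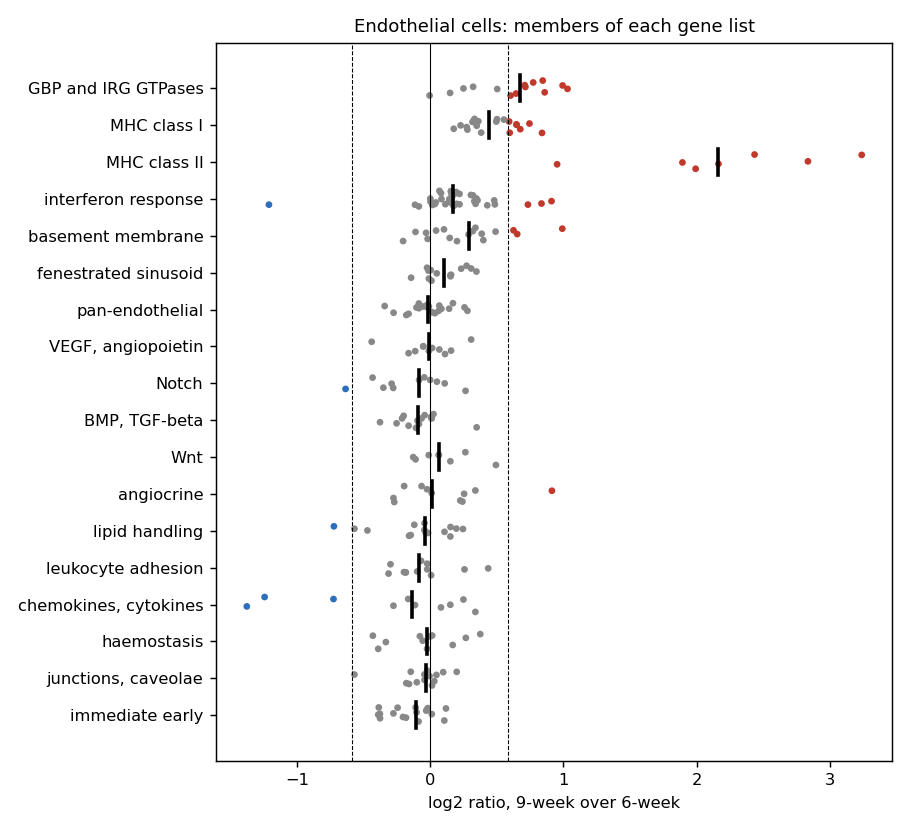
Each point is 1 tested gene of a list in endothelial cells by its log2 ratio of 9-week over 6-week, red where 1.5-fold higher, blue where 1.5-fold lower and grey between, with black bars at the list medians and dashed lines at 1.5-fold. GTPases (median 0.68), class I (0.44) and class II genes (2.16) lie to the right, and lists of vessel identity and signalling lie around 0.

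MHC class II genes, which professional antigen-presenting cells use to show peptides taken up from outside, had larger ratios than the class I genes and the GTPases. All 7 tested, of 12 listed, were higher, against 1.31% of all genes, with a median log2 ratio of 2.16. Their levels stayed far below those of the immune gate. In cortical barcodes 6 of 6 tested were higher too, with a median of 1.77, against 7.22% of all genes there. Which cells the class II RNA in cortical barcodes came from was not tested. Ciita and H2-DMb1 reached the level for testing only through 9 weeks, and the 5 genes not tested had at most 11 UMIs at 9 weeks and 14 UMIs at 6 weeks. Cd74, the invariant chain, stood at 1039 CPM (1009 to 1070) at 9 weeks, against 106 CPM (95.3 to 117) at 6 weeks. H2-Ab1 stood at 481 CPM (460.4 to 502) at 9 weeks, against 117 CPM (106 to 129) at 6 weeks. H2-DMb1, which helps load peptides, stood at 86.5 CPM at 9 weeks and 7.83 CPM at 6 weeks. Ciita, the transactivator that switches class II genes on, was weak, with 67 UMIs (15.5 CPM) at 9 weeks and 20 UMIs (5.59 CPM) at 6 weeks. H2-Aa, H2-Eb1 and H2-DMa had log2 ratios of 2.16, 2.43 and 1.89. After thinning, Cd74 was found in 42.2% of members (39.6 to 44.7) at 9 weeks and in 7.11% (5.85 to 8.55) at 6 weeks, while the unthinned shares were 64.3% at 9 weeks and 11.9% at 6 weeks. In the cortical gate the thinned shares were 7.67% at 9 weeks and 2.08% at 6 weeks and the unthinned shares 53.5% at 9 weeks and 15.9% at 6 weeks, at median depths of 14727 UMIs at 9 weeks and 15606 UMIs at 6 weeks before thinning. Unthinned, the cortical share was thus below that of the shallower members at 9 weeks and above it at 6 weeks.

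RNA of macrophage and neutrophil genes was also more abundant in the members at 9 weeks, and in the cortical gate as well. Of 14 macrophage genes 10 were tested and 7 were higher, against 1.31% of all genes, and none of the 14 was at 0. Of those tested in cortical barcodes, 7 of 7 macrophage genes were higher, with a median of 0.98, and 2 of 2 neutrophil genes, with a median of 2.89. Over all genes tested in that gate 7.22% were higher. In the members the macrophage genes' summed level was 1387 CPM at 9 weeks and 866 CPM at 6 weeks, most of it from Fcer1g (684 CPM at 9 weeks and 551 CPM at 6 weeks) and from Mrc1, given above among the scavenger receptors. Which cells the UMIs of Fcer1g and Mrc1 came from was not tested. Lyz2 stood at 194 CPM at 9 weeks and 42.5 CPM at 6 weeks, with 53.6% of its UMIs at 9 weeks in 5 cells, and without Scrublet doublets at 105 CPM at 9 weeks and 39.1 CPM at 6 weeks. C1qa stood at 61.8 CPM at 9 weeks and 23.8 CPM at 6 weeks. The 9 neutrophil genes summed to 900.4 CPM at 9 weeks and 14.8 CPM at 6 weeks, where Retnlg, Ly6g, Camp and Ngp were at 0. Of the 1864 S100a9 UMIs at 9 weeks, 1 barcode held 996. The T, NK and B cell genes summed to 28.2 CPM at 9 weeks and 33.6 CPM at 6 weeks, and 0 of 14 reached the level for testing.

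The class II levels were set beside this RNA as a percent of the immune gate of the same library. The 7 tested class II genes stood in the members at a median of 6.54% of the immune level (4.58 to 10.3 over genes) at 9 weeks and 1.36% (0.765 to 4.11) at 6 weeks. The 12 myeloid genes stood at a median of 2.41% (1.48 to 36.5, the highest being Fcer1g) at 9 weeks and 0.729% (0.531 to 24.6) at 6 weeks. In the cortical gate the class II median was 1.13% (0.833 to 1.41) at 9 weeks and 0.306% at 6 weeks. The myeloid median there was 0.734% (0.475 to 0.886) at 9 weeks and 0.205% at 6 weeks. The cortical ranges at 9 weeks overlapped only through Cd74, so they lay nearly apart there too. At 9 weeks the ranges of both sets in the members overlapped only through Fcer1g. The next highest myeloid gene, Aif1, stood at 3.28%, below the lowest class II gene, H2-Eb1, at 4.58%. At 6 weeks they overlapped without Fcer1g too, with the myeloid gene Laptm5 at 1.23% and the class II gene Cd74 at 0.765%. Of the class II genes not tested, H2-Oa stood at 0.578% at 9 weeks and 1.13% at 6 weeks and H2-Ob at 3.88% at 9 weeks and 8.63% at 6 weeks. H2-DMb2 stood at 2.80% at 9 weeks and 0% at 6 weeks. Each of these values came from at most 14 UMIs in the members. In the 731 members at 9 weeks and 1304 at 6 weeks with no UMI of Tyrobp, Lyz2, C1qa, Cd3e, Cd79a or S100a8, the class II median was 2.20. These members still held immune RNA, with a macrophage list median of 0.64 and S100a9 at 203 CPM at 9 weeks and 5.95 CPM at 6 weeks. The part of immune RNA in the class II levels was not tested. With free RNA subtracted by the level of the steroid genes, the class II median was 1.88. The rate subtracted was 3.85% at 9 weeks and 2.64% at 6 weeks. The choice of members limits steroid genes to under 0.5% of UMIs, so this rate depends on the gate and may be too low.

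**Figure D4:**
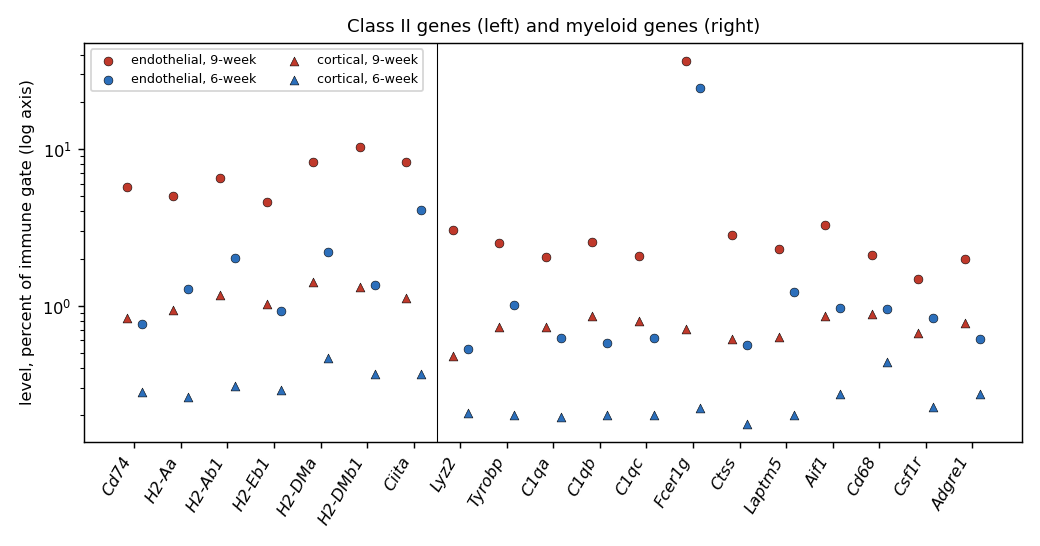
Level of 7 class II genes (left) and 12 myeloid genes (right) as a percent of the level in the immune gate of the same library (log axis), for endothelial members (circles) and the cortical gate (triangles), 9-week in red left of 6-week in blue. The 7 class II genes in endothelial cells have medians of 6.54% at 9 weeks and 1.36% at 6 weeks, and the myeloid genes 2.41% at 9 weeks and 0.729% at 6 weeks, with Fcer1g the highest.

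Genes of leukocyte recruitment were not called higher. Of 12 tested adhesion genes 0 were higher and 0 lower. Icam1 stood at 54.4 CPM at 9 weeks and 62.3 CPM at 6 weeks, Vcam1 at 14.3 CPM at 9 weeks and 19.0 CPM at 6 weeks, and the selectins Sele and Selp at 1.62 CPM or less at both ages. Of 10 chemokines and cytokines 0 were higher and 3 lower, against 1.41% lower over all genes. Cxcl10, which attracts T cells, stood at 34.2 CPM at 9 weeks and 87.8 CPM at 6 weeks, and Cxcl9, with the same receptor, at 13.4 CPM at 9 weeks and 42.8 CPM at 6 weeks. These levels came from few cells. Cxcl10 was found in 45 members (2.90%) at 9 weeks and 38 (2.50%) at 6 weeks, and the 5 highest cells held 46.6% of its UMIs at 9 weeks and 77.4% at 6 weeks, so the share of cells did not go with the level. Il15, which sustains NK and memory T cells, was more widely spread, at 29.1 CPM at 9 weeks and 51.5 CPM at 6 weeks, found in 7.16% of members at 9 weeks and 10.1% at 6 weeks.

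In the basement membrane list 3 of 17 genes were higher and 0 lower at 9 weeks, against 1.31% higher over all genes, with a median log2 ratio of 0.29. Cortical barcodes had 7 of 13 higher and 2 lower, against 7.22% higher and 3.78% lower over all genes there, with a median of 0.64. The laminin chain Lamb1 stood at 47.2 CPM (40.9 to 54.1) at 9 weeks, against 21.3 CPM (16.7 to 26.6) at 6 weeks. Lamc1, with which it assembles, stood at 148 CPM (137 to 160.4) at 9 weeks, against 94.5 CPM (84.7 to 105) at 6 weeks. The collagen IV chains were not called, with Col4a1 at 1538 CPM at 9 weeks and 1093 CPM at 6 weeks and Col4a2 at 566 CPM at 9 weeks and 428 CPM at 6 weeks. Sparcl1, the remaining gene called, stood at 111 CPM at 9 weeks and 68.8 CPM at 6 weeks and was found in 12.7% of members at 9 weeks and 7.24% at 6 weeks. Lamb1 was higher in the cortical gate too, at 77.9 CPM at 9 weeks and 24.9 CPM at 6 weeks, and the part of cortical RNA in its level was not tested.

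Among genes for factors that endothelium sends to the cells around it, 1 of 11 tested was higher and 0 lower. Over all genes 1.31% were higher. Igfbp7, a secreted binding protein of insulin-like growth factors, stood at 982 CPM (953 to 1012) at 9 weeks, against 519 CPM (496 to 543) at 6 weeks. In the cortical gate it was at 2236 CPM at 9 weeks and 1089 CPM at 6 weeks, above the members at both ages. Kitl, the ligand of the receptor Kit, stood at 439 CPM at 9 weeks and 367 CPM at 6 weeks, and Csf1, a growth factor of macrophages, at 119 CPM at 9 weeks and 93.1 CPM at 6 weeks. Rspo3, Wnt2 and Wnt9b, known as signals of liver sinusoids, had at most 2 UMIs at either age.

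Of 15 lipid handling genes 0 were higher and 1 was lower, the cholesterol exporter Abca1 (24.98 CPM at 9 weeks and 44.5 CPM at 6 weeks). Scarb1, a receptor of high-density lipoprotein, stood at 241 CPM at 9 weeks and 209.7 CPM at 6 weeks. Of 11 haemostasis genes, 14 junction and caveolae genes and 17 immediate early genes of dissociation stress, 0 were higher and 0 lower. In the arterial list 0 of 10 were higher and 3 lower (Mgp, Stmn2 and Fbln5), against 1.41% lower over all genes. These 3 reached the level for testing only through 6 weeks, Mgp was found in 6 cells at 9 weeks and 16 at 6 weeks, and with the clusters weighted alike 0 were lower. The 1 called of 17 hypoxia and glycolysis genes, Bnip3, was lower, at 6.71 CPM at 9 weeks and 15.1 CPM at 6 weeks.

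A rule on level, share of cells and size of the log2 ratio named 9 genes. Of these, 3 were higher at 9 weeks: Plaat3, an acyltransferase of lipid metabolism, Kcne3, a potassium channel subunit of endothelial tip cells, and Tgtp1. Plaat3 stood at 96.2 CPM (87.2 to 106) at 9 weeks, against 12.6 CPM (9.18 to 16.8) at 6 weeks, and was found in 21.8% of members at 9 weeks and 2.83% at 6 weeks. Its log2 ratio was -0.12 in the cortical gate and 0.070 in the immune gate. Kcne3 stood at 99.2 CPM at 9 weeks and 44.7 CPM at 6 weeks, and did not exceed 3.47 CPM in any other gate.

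The 6 genes named as lower differed in how far this held in other cells. Fxyd6, a regulator of the sodium pump, stood at 3.24 CPM (1.77 to 5.43) at 9 weeks, against 133 CPM (121 to 146) at 6 weeks. In the cortical gate it had the other direction, at 186 CPM at 9 weeks and 126 CPM at 6 weeks, and in the immune gate it was at 2.90 CPM at 9 weeks and 2.41 CPM at 6 weeks. Neat1, a nuclear long non-coding RNA, stood at 6.24 CPM at 9 weeks and 113 CPM at 6 weeks, and Pttg1, the securin of chromosome separation, at 14.8 CPM at 9 weeks and 117 CPM at 6 weeks. The log2 ratio of Neat1 was -3.07 in the cortical and -1.06 in the immune gate, and that of Pttg1 -2.32 in the cortical and -0.18 in the immune gate.

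Chchd10, a mitochondrial protein, stood at 106 CPM at 9 weeks and 255 CPM at 6 weeks, and Hjurp, a chaperone of centromeric histone, at 23.1 CPM at 9 weeks and 57.0 CPM at 6 weeks. Ltbp4, which binds latent TGF-beta, stood at 98.5 CPM at 9 weeks and 211 CPM at 6 weeks, with at most 0.278 CPM in the cortical and immune gates. Some transcripts differed in every gate. Gm42418, known to overlap ribosomal RNA and named after its values were seen, stood at 3689 CPM at 9 weeks and 10126 CPM at 6 weeks in the members, and its log2 ratio was -1.68 in the cortical and -1.92 in the immune gate. A further set was of genes called at 1.5-fold. At the age of their higher level they had at least 50 CPM, UMIs in 10% of members and 5 times or more the cortical and immune levels. Of these, 12 were higher and 3 lower. Over all genes tested 1.31% were higher and 1.41% lower. Genes thus entered through the age where they were high. How many uncalled genes met the limits was not counted, so the 2 counts have no like share beside them. The genes of this set include Adamts5, a protease of extracellular matrix (167 CPM at 9 weeks and 96.7 CPM at 6 weeks), and Rcn3, a calcium-binding protein of the endoplasmic reticulum (68.7 CPM at 9 weeks and 122 CPM at 6 weeks), both also named after their values were seen.

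The members were also clustered, with each gene standardized within its library because a first clustering had split by library. This draws cluster sizes towards equality between the ages, so they are not compared. Cluster 1 (506 members at 9 weeks and 485 at 6 weeks) was led by Bgn, Lbp and Tnxb, and its level of the venous regulator Nr2f2 was 302 CPM at 9 weeks and 311 CPM at 6 weeks. Cluster 2 (414 members at 9 weeks and 420 at 6 weeks) had Igfbp5 among its leading genes and the highest Kitl of the clusters, at 881 CPM at 9 weeks and 788 CPM at 6 weeks. Cluster 3 (344 members at 9 weeks and 322 at 6 weeks) was led by S100a8, Chchd10 and S100a9, so neutrophil genes stand among its leading genes beside the tip cell gene Apln, and it stays unnamed. Of its 1176 S100a9 UMIs at 9 weeks 1 barcode held 996, and at 6 weeks it had 5 UMIs, so that lead is largely from 1 barcode. Cluster 4 (272 members at 9 weeks and 279 at 6 weeks) was led by Cxcl10, Isg15 and Ifit3. Cluster 5 (15 members at 9 weeks and 14 at 6 weeks) was arterial-like, led by Npnt, Stmn2, Fbln5, Gja4, Jag1 and Cxcl12. With so few cells 22.5% of its tested genes were called higher and 23.1% lower, and it was not compared.

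In clusters 1 to 3 most GTPases were higher at 9 weeks, and in cluster 4 few were. Over all genes tested, 3.5% were higher and 3.98% lower in cluster 1, 5.45% and 5.36% in cluster 2, 8.47% and 7.33% in cluster 3, and 8.44% and 8.16% in cluster 4. Of the GTPases 9 of 14 were higher in cluster 1, 11 of 14 in cluster 2, 9 of 14 in cluster 3 and 2 of 15 in cluster 4, and 0 were lower in each. In cluster 2, Iigp1 stood at 638 CPM at 9 weeks and 206 CPM at 6 weeks. In cluster 4 it stood at 886 CPM at 9 weeks and 734 CPM at 6 weeks, and its level at 6 weeks was thus higher there than in the other clusters. Isg15 in cluster 4 stood at 909 CPM at 9 weeks and 906 CPM at 6 weeks. Class II genes were higher in each of these clusters, 7 of 7 in clusters 1 and 2, 6 of 6 in cluster 3 and 6 of 7 in cluster 4. Whether the clusters differ in these ratios was not tested, and since interferon genes lead cluster 4, its levels of them are part of what formed it.

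**Figure D5:**
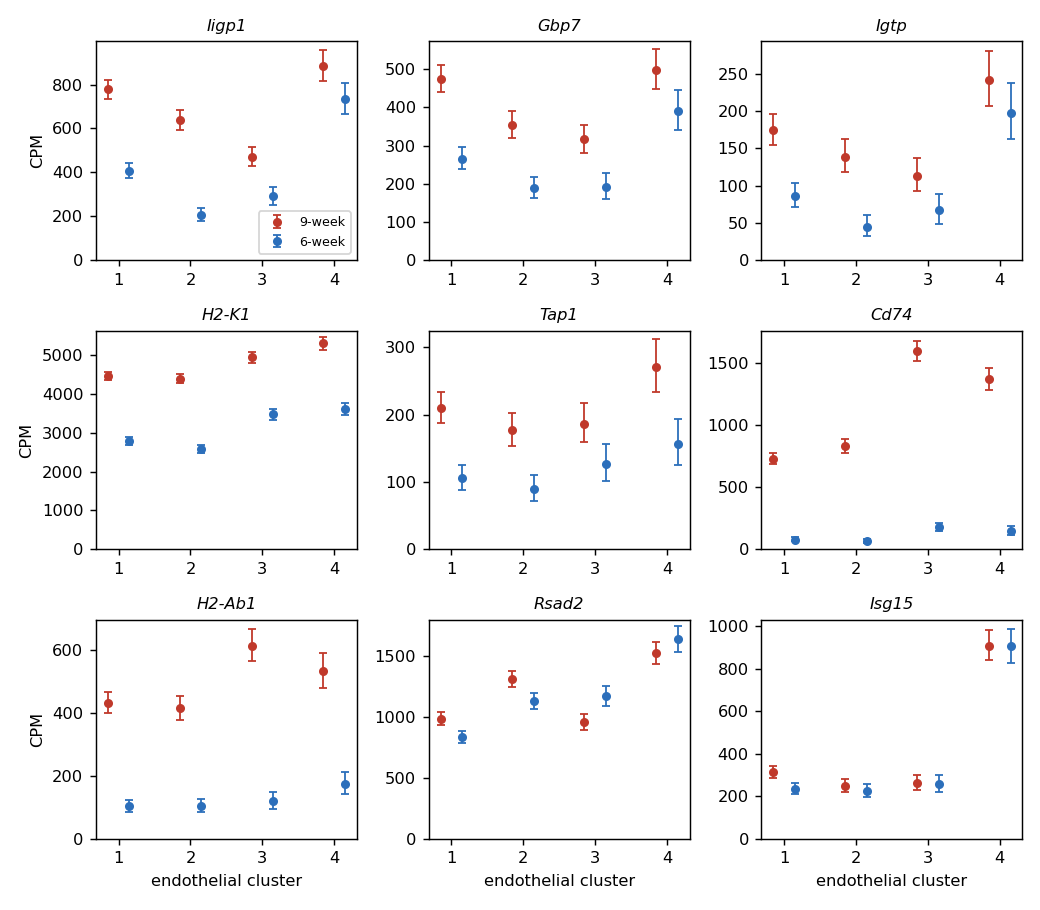
Levels (CPM, with exact Poisson 95% intervals) of 9 genes in endothelial clusters 1 to 4, 9-week in red left of 6-week in blue. Iigp1 stands at 638 CPM at 9 weeks and 206 CPM at 6 weeks in cluster 2 and at 886 CPM at 9 weeks and 734 CPM at 6 weeks in cluster 4, Cd74 and H2-Ab1 stand apart between the ages in each of the 4, and Isg15 is highest in cluster 4.

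Few members were dividing by their mitotic genes. After thinning, 3 of 1504 members at 9 weeks and 0 of 1462 at 6 weeks (Clopper-Pearson upper bound 0.252%) held at least 2 UMIs from these genes, and unthinned 9 members (0.58%) at 9 weeks and 3 (0.197%) at 6 weeks did. Of 8 tested proliferation genes 3 were higher and 0 lower, against 1.31% higher over all genes, with a median log2 ratio of 0.38. Only 1 was higher, with a median of 0.074, under the stricter gate, 0.030 with a mean of per-cell CPM, 0.064 with free RNA subtracted and -0.046 in members without immune marker UMIs. Top2a, a topoisomerase of dividing cells, had 52 UMIs at 9 weeks, 32 of them in 5 cells, and 4 UMIs at 6 weeks. Cdk1, the mitotic kinase, stood at 26.1 CPM at 9 weeks and 9.23 CPM at 6 weeks, and Stmn1, a regulator of microtubules, at 109 CPM at 9 weeks and 70.5 CPM at 6 weeks. In the list of p53 targets and senescence genes, 1 of 14 was higher and 0 lower, against 1.31% higher over all genes. Lmnb1, a nuclear lamin known to fall in senescent cells, was the higher one, at 22.7 CPM at 9 weeks and 12.02 CPM at 6 weeks. Cdkn1a, which halts the cell cycle, stood at 133 CPM at 9 weeks and 131 CPM at 6 weeks, and Cdkn2a, which does so too, at 12.03 CPM at 9 weeks and 11.7 CPM at 6 weeks.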

How the data were processed

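Adrenal cells were dissociated, cleared of red blood cells, sorted as single viable cells (positive for the DNA dye Vybrant DyeCycle Ruby, negative for DAPI) and captured with the Chromium 3' v3.1 kit, per the labels' protocols. The authors deposited counts, which are whole numbers of UMIs per gene and barcode with no normalization. They sum to 99728879 UMIs over 10812 barcodes at 9 weeks and 97001752 UMIs over 8880 barcodes at 6 weeks. The submitters' processing notes name Cell Ranger 6.0.1, Seurat (no version) and the build mm10. No annotation release is stated in what was used here. The kit reads 3' ends, so a gene's level is compared between ages, and near-identical genes can share UMIs.

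Rows sharing a symbol were summed (32285 rows, 32245 symbols). The limits on genes and mitochondrial UMIs removed 221 and 64 barcodes at 9 weeks and 161 and 111 at 6 weeks. Doublets were kept in the values reported: Scrublet, at an expected 0.8% per 1000 cells, marked 5.57% of barcodes kept at 9 weeks and 5.52% at 6 weeks, but only 6 members at 9 weeks and 4 at 6 weeks. UMIs were summed per gate and library and divided by the gate's total. The bounds of a log2 ratio set the lower bound of one age against the upper bound of the other. Since each age has a single library, nothing was tested against replicate spread, and p-values are not given. Leiden clustering used 1992 variable genes, 20 components, 20 neighbours and a resolution of 0.5. Named genes needed 50 CPM, 30 UMIs and UMIs in 10% of members at the age with the higher level, a log2 difference of 1 or more either way, and 20% or more of the level in each other gate, with up to 12 each way. Mitochondrial, ribosomal protein, haemoglobin and antigen receptor genes, the gate genes and clone or model names were left out, and genes of the 37 lists could be named too. 1 gene called higher in the interferon response list is not reported here by name. The members and lists were chosen with earlier results of these data known. Calling was tested on simulated counts with known fold changes and counting error only. Spread between animals or libraries was not simulated. The alternatives were 12 other settings of scaling, filters, gate and cells. The software was scanpy 1.11.5, leidenalg 0.10.2, scipy 1.17.1 and numpy 2.4.6 under Python 3.11.15, with scaling factors from edgeR 4.0.16 and DESeq2 1.42.0 under R 4.3.3, neither of which was used for a test.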

Additional observations from a re-analysis of the deposited data

How the results depend on the processing

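No paired analysis was possible because each age has 1 library and the replicate numbers pair no samples. Of the share of members, 15.5% at 9 weeks and 18.6% at 6 weeks were found with Scrublet doublets removed, 15.5% and 20.4% with at most 10% mitochondrial UMIs, and 15.1% at 6 weeks with at least 1000 genes. The causes were not tested. The genes higher at 9 weeks, 117 in the values reported, numbered 186 with a pseudocount of 1 CPM and 213 with no filter on low levels. With free RNA subtracted they numbered 88, the fewest of the settings. Those lower, 126 in the values reported, numbered 238 with that pseudocount and 199 with no filter. They numbered 193 in members without immune marker UMIs and 133 with free RNA subtracted. The smaller pseudocount and the missing filter let in ratios of weaker genes by their construction. The class II median was 1.89 with no filter, which adds untested genes, and 1.88 with free RNA subtracted, and 7 genes were higher in both. Over the 12 alternatives the GTPase median ranged from 0.60 to 0.76, the class I median from 0.42 to 0.54, the interferon response median from 0.15 to 0.22 and the basement membrane median from 0.24 to 0.34. All 9 named genes were named again under 11 of the 12 and 6 of them with a mean of per-cell CPM. Of the other lists, the macrophage median was 0.26 with free RNA subtracted, against 1.12, and the proliferation median -0.046 without immune marker UMIs, against 0.38. Depth limits what can be said of genes under 10 CPM.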
